A study of Homo sapiens with 8 samples.

Results

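The tubulin genes examined here were 10 members of the α- and β-tubulin families, which encode the subunits of microtubules. They were chosen by name, with earlier results of these data known: *TUBA1A*, *TUBA1B*, *TUBA1C* and *TUBA4A* for α-tubulin, and *TUBB*, *TUBB2A*, *TUBB2B*, *TUBB3*, *TUBB4B* and *TUBB6* for β-tubulin. They are 10 of the 63269 genes listed in the deposited tables. The study exposed HCT116 and NCI-H716, established cell lines from human colorectal cancers, to Z325 (ZINC000101867325), a small molecule selected by docking against the kinase domains of the fibroblast growth factor receptors FGFR1 to FGFR4. RNA-seq was carried out on control and treated cells of each line, with 2 libraries per group and 8 in all, and the treated libraries bear the word Test in their titles. Each library was amplified from about 100 cells as full-length cDNA, by a method that does not keep the strand of the RNA. The labels give neither dose nor duration. The study set 1 concentration for the experiments that followed its viability assay and names no separate dose or time for RNA-seq, and no allele or further agent is named for any group. The replicates are described as biological duplicates, each of 1 line in culture.

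Microtubules are polymers of α/β-tubulin heterodimers, and each subunit is encoded by several genes, the isotypes, whose products mix in the same polymer. Dividing cells need large amounts of tubulin to build the mitotic spindle, and *TUBA1B*, *TUBA1C*, *TUBB* and *TUBB4B* are broadly expressed isotypes, whereas *TUBB3* is best known from neurons and *TUBA1A* and *TUBB2B* from developing brain. Cells also regulate tubulin mRNA after transcription: when free heterodimer accumulates, the factor TTC5 recognizes the first residues of a nascent tubulin chain on the ribosome, and the mRNA is degraded with the help of SCAPER and the CCR4-NOT subunit CNOT11.

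The residues that this control reads are encoded at the start of the coding region. The first 30 coding bases of the 10 members are therefore shown, with the first 4 codons in capitals. They were read from the canonical transcripts of GENCODE v44.
TUBA1A: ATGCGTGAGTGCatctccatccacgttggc
TUBA1B: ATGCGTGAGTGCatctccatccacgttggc
TUBA1C: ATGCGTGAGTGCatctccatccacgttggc
TUBA4A: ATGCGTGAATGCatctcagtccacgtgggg
TUBB: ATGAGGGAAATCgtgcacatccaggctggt
TUBB2A: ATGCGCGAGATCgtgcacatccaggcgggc
TUBB2B: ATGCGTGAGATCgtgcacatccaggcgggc
TUBB3: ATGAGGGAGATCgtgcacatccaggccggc
TUBB4B: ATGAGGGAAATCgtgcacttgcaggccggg
TUBB6: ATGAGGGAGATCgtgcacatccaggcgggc
The 10 genes held 6 different 12-base starts. These encode Met-Arg-Glu-Cys in every α member and Met-Arg-Glu-Ile in every β member, so within each family the starts differ only in synonymous codons. *TUBA1A*, *TUBA1B* and *TUBA1C* had the same 30 bases, and their 12-base start occurred in these 3 genes alone among the 19820 protein-coding genes searched (0.0151%). *TUBB* shared its start with *TUBB4B* and the minor isotype gene *TUBB8B*, and *TUBB3* shared its own with *TUBB6* and *TUBB8*. Over the whole coding sequence, the α members were 84.4% to 97.2% identical to each other and the β members 81.0% to 98.2%, against 54.8% to 57.6% between α and β. The closest pairs were *TUBB2A* with *TUBB2B* (98.2%) and *TUBA1A* with *TUBA1B* (97.2%). Reads from such pairs can be assigned to either gene, so the split of a signal within these pairs is uncertain.

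The promoters of the 4 α members are shown as well, because *TUBA1A* overlapped between the groups in NCI-H716 and the other 3 did not. The sequences are from RefSeq (GRCh38.p14), cover 250 bases before to 50 after the start of transcription, and run 5′ to 3′ along the gene. Capitals mark CCAAT (a box bound by NF-Y) and GGGCGG (a GC box bound by Sp1-type factors), searched on both strands as CCAAT or ATTGG and as GGGCGG or CCGCCC.
TUBA1A, chr12:49189031-49189330, minus strand: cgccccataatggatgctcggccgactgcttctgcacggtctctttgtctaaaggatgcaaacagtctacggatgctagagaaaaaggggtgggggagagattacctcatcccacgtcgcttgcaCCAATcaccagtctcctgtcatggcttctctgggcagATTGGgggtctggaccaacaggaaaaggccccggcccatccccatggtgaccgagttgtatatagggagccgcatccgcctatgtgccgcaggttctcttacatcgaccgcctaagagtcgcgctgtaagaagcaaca
TUBA1B, chr12:49131346-49131645, minus strand: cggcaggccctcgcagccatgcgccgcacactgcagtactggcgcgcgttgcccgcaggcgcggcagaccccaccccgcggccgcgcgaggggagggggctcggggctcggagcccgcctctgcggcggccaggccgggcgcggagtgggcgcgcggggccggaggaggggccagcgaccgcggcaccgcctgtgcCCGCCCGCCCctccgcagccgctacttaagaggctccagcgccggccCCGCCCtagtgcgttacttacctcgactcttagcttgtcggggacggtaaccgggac
TUBA1C, chr12:49264832-49265131, plus strand: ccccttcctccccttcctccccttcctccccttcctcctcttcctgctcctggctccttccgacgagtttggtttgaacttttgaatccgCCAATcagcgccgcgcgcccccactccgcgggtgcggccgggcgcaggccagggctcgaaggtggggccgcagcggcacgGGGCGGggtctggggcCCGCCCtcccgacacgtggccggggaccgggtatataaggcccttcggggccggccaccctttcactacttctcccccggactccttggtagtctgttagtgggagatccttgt
TUBA4A, chr2:219253869-219254168, minus strand: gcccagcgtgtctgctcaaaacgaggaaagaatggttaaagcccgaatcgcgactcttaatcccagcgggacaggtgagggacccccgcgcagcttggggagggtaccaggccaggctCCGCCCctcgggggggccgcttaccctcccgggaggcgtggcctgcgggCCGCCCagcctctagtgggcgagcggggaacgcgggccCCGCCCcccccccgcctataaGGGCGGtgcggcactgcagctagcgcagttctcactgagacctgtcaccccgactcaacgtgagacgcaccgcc
The *TUBA1A* promoter held 2 CCAAT matches and no GGGCGG match, whereas *TUBA1B* held 3 GGGCGG matches and *TUBA4A* 4, both without CCAAT. *TUBA1C* held 1 CCAAT and 2 GGGCGG matches. Of the 10 members, all of which had a promoter in the table, 7 held CCAAT and 8 held GGGCGG. These letters were present in 34.6% and 45.0% of the 35116 promoters of the same length. TTTGAA, the core of the cell cycle homology region, searched with TTCAAA, was found in 2 members (15.2% of all promoters), and TATAAA, searched with TTTATA, in 1 (11.5%). Among the β members, *TUBB4B* held 3 CCAAT matches and no GGGCGG match, and its groups did not overlap. *TUBB2B* held 1 match of each, and its groups overlapped. *TUBB*, *TUBB3* and *TUBB6* held 1 CCAAT match each, with 1, 5 and 6 GGGCGG matches, and *TUBB2A* held 5 GGGCGG matches without CCAAT. The groups of these genes did not overlap, although *TUBB* held as many matches of each kind as *TUBB2B*. A match of letters is a description of the window and not a measured binding site, and its part in the tubulin values was not tested.

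The libraries held 10210272 to 19738881 counts in NCI-H716. In HCT116, 3 libraries held 13183792 to 13396225 counts over the genes listed and the second Z325 library 3434620. The HCT116 table used here ends on chromosome 9, so only *TUBA4A*, *TUBB*, *TUBB2A* and *TUBB2B* are listed for that line. The other 6 members were not analysed in HCT116. Of 10 epithelial markers, NCI-H716 had counts for 7 in every library, with a summed level of 756 to 784 CPM (counts scaled to a common library size) in control and 647 to 658 CPM in Z325 libraries, and *CDX1* was at 0 throughout. Of 9 neuroendocrine markers, 7 had counts in every library, with sums of 855 to 965 CPM in control and 1095 to 1317 CPM in Z325 libraries. The 4 blood markers summed to at most 1.44 CPM and the 5 fibroblast and endothelial markers to 245 to 268 CPM in control and 312 to 354 CPM in Z325 libraries, which was almost all *COL3A1*. In HCT116, 3 epithelial markers were listed and summed to 1424 to 1655 CPM, and 2 neuroendocrine markers to 14.6 to 22.5 CPM. The epithelial sum was almost all *EPCAM*, with *VIL1* and *CDX1* at group means of 0.29 CPM or less. The neuroendocrine sum was *SCG2* alone, with *NEUROD1* at 0. The blood, fibroblast and endothelial markers listed did not exceed 1.72 CPM. The part of these marker levels in the tubulin values was not tested.

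In NCI-H716, 9 of the 10 tubulin genes had a lower mean in the Z325 libraries, against 50.6% of all genes tested. Both treated libraries were below both controls for 8 of them, against 25.1% of all genes tested. The abundant α isotype *TUBA1B* was lower by 2.2-fold, *TUBA1C* by 2.05-fold and the β isotype *TUBB2A* by 1.97-fold, while *TUBA1A* and *TUBB2B* overlapped between the groups. None of the 10 passed an adjusted p of 0.05 in edgeR, which 0.502% of all genes tested did. In HCT116, where 5.78% of all genes were called, *TUBA4A* fell 2.2-fold and passed the test, as it did in 10 of 14 alternatives. The median log2 fold change of the 10 members in NCI-H716 was -0.70, against -0.01 over the 14142 genes tested. Values are relative to the whole library, so fewer cells of a type and less tubulin RNA per cell cannot be told apart.

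The question for NCI-H716 was whether tubulin mRNA differed between control and Z325 libraries. By length-normalized level (TPM, which scales counts by transcript length and library size), *TUBA1B* stood far above the other isotypes in the controls, with 1781 and 1171 TPM, and had 728 and 598 TPM with Z325. *TUBB* followed with 328 and 341 TPM in control and 247 and 227 TPM in treated libraries. The next genes were *TUBA1C* (176 and 127 TPM in control) and *TUBB4B* (120 and 142 TPM in control), which could not be ranked because their control libraries overlapped. The same held for *TUBA4A* (100.0 and 65.5 TPM) and *TUBA1A* (82.8 and 64.1 TPM). Below these came *TUBB2A* with 22.5 and 19.7 TPM, *TUBB3* with 16.6 and 16.9 TPM, *TUBB6* with 2.54 and 4.93 TPM and *TUBB2B* with 1.57 and 1.13 TPM, and these control libraries did not overlap between neighbours.

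**Figure D1:**
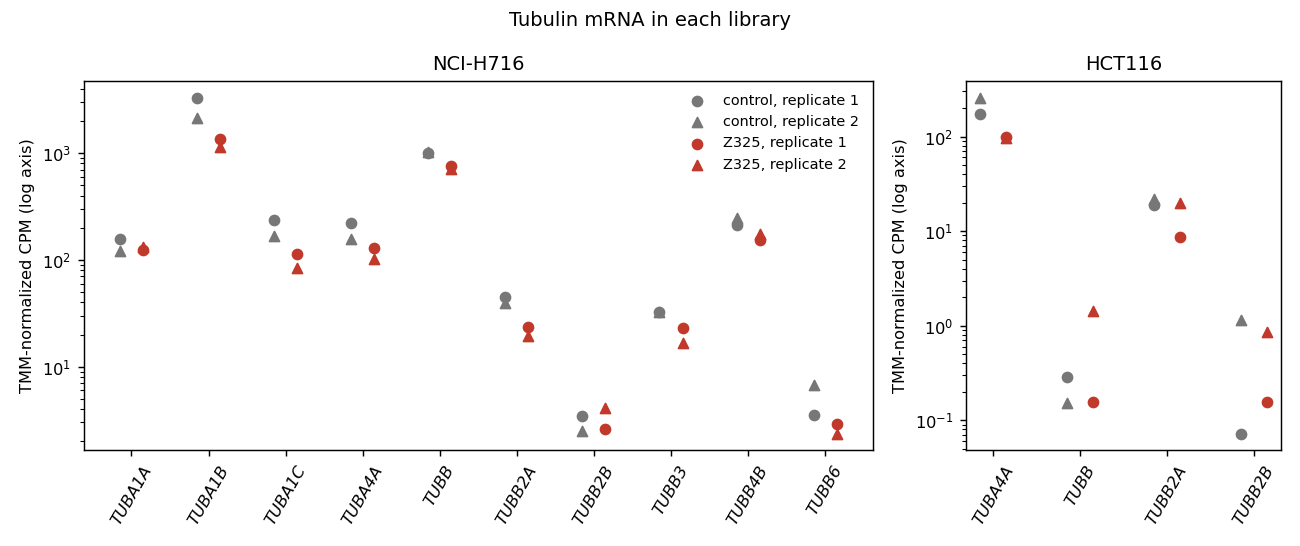
TMM-normalized CPM (log axis) of each tubulin gene in each library, with control libraries in grey and Z325 libraries in red, replicate 1 as circles and replicate 2 as triangles. In NCI-H716, both red points lie below both grey points for 8 of 10 genes and overlap for *TUBA1A* and *TUBB2B*. In HCT116, *TUBA4A* has both red points below both grey points, and *TUBB* and *TUBB2B* lie at 1.43 CPM or less.

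Among the α isotypes, *TUBA1B* had 3292 and 2128 CPM in the control and 1359 and 1133 CPM in the Z325 libraries, after TMM normalization. Both treated libraries were below both controls, and the controls differed from each other more than the treated libraries did. The log2 fold change was -1.12 (SE 0.215), with an unadjusted p of 0.000356 and an adjusted p of 0.0609 in edgeR, just outside the threshold. *TUBA1B-AS1*, an antisense transcript, shares 1571 exon bases with *TUBA1B*, 44% of the exon length of *TUBA1B* and 34% of its own. Reads within the shared bases cannot be told apart without strand. *TUBA1B-AS1* had 629 and 751 CPM in control and 474 and 623 CPM in treated libraries (log2 fold change -0.33, edgeR adjusted p = 0.385). When both genes were counted as 1, the log2 fold change was -0.92, with an adjusted p of 0.0657 in edgeR.

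*TUBA1C*, the third member with the same coding start, had 236 and 169 CPM in control and 113 and 84.4 CPM in Z325 libraries. The groups did not overlap, and the log2 fold change was -1.04 (SE 0.212, edgeR adjusted p = 0.0750). *TUBA4A*, whose coding start differs in bases but encodes the same first residues, had 222 and 155 CPM in control and 131 and 103 CPM in treated libraries. It was again lower in both treated libraries, with a log2 fold change of -0.69 (SE 0.207, edgeR adjusted p = 0.167). *TUBA1A* was the α member whose groups overlapped: its 158 and 120 CPM in control enclosed the 123 and 133 CPM of the treated libraries. Its log2 fold change was -0.12, with a 95% interval of -0.52 to 0.28. That interval overlapped the one of *TUBA4A* (-1.154 to -0.235), and no test compared *TUBA1A* with the other members. Its coding sequence is 97.2% identical to that of the far more abundant *TUBA1B*, so its counts depend on how reads were split.

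**Figure D2:**
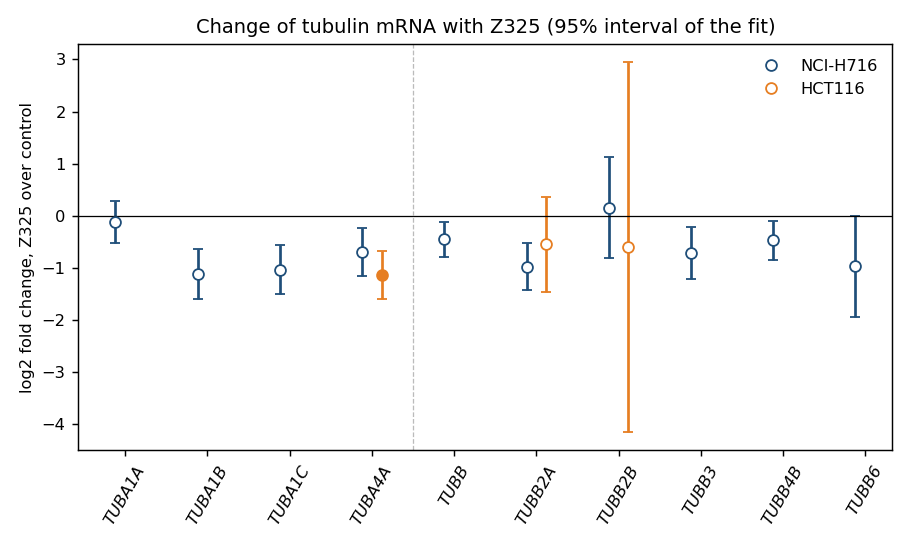
Log2 fold change (Z325 over control) of each tubulin gene with its 95% interval from the edgeR fit, NCI-H716 in blue and HCT116 in orange, α members left of the dashed line and β members right of it. The only filled point, *TUBA4A* in HCT116 at -1.14, marks an adjusted p under 0.05. In NCI-H716 the intervals of *TUBA1A* and *TUBB2B* include 0 and that of *TUBB6* ends just under 0.

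Among the β isotypes, *TUBB*, the most abundant, had 993 and 1021 CPM in control and 762 and 712 CPM in Z325 libraries. The controls lay close together and above both treated libraries, and the log2 fold change was -0.45 (SE 0.152, edgeR adjusted p = 0.198). *TUBB4B* had 212 and 246 CPM in control and 154 and 176 CPM in treated libraries. Its groups did not overlap either, at a log2 fold change of -0.47 (SE 0.166, edgeR adjusted p = 0.206). *TUBB2A* had 44.9 and 39.4 CPM in control and 23.6 and 19.3 CPM in treated libraries. Among the β members it had the lowest log2 fold change, -0.98 (SE 0.203, edgeR adjusted p = 0.0789).

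*TUBB3*, the β isotype typical of neurons, had 32.2 and 32.6 CPM in control and 23.2 and 16.5 CPM in Z325 libraries, with a log2 fold change of -0.71 (SE 0.224, edgeR adjusted p = 0.179). Of the 7 neuroendocrine markers tested, 6 had a higher mean in treated libraries and *SYP* a lower one (log2 fold change -0.71), and none passed the adjusted p of 0.05 in edgeR. Over all genes tested, 50.6% had a lower mean. *TUBB6* was low, with 3.56 and 6.79 CPM in control and 2.90 and 2.36 CPM in treated libraries, and its log2 fold change of -0.97 had an SE of 0.435. *TUBB2B* had 3.48 and 2.52 CPM in control and 2.6 and 4.07 CPM in treated libraries. These overlapped, and the log2 fold change was 0.16 with a 95% interval of -0.82 to 1.13. Some members share exon bases with other genes, which leaves their counts uncertain: 21.3% of the exon length of *TUBB3* with a readthrough gene on the same strand, 21.2% of *TUBB6* with *AFG3L2*, 17.0% of *TUBA4A* with *STK16*, and 13.2% of *TUBB* and 15% of *TUBA1C* each with a long non-coding RNA.

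Counted together, 0 of the 10 members passed the adjusted p of 0.05 in NCI-H716 in edgeR, where 71 of 14142 genes passed (0.502%) and 14 of them were lower (0.099%). DESeq2 called 3 members, all lower, and 316 of the 10899 genes to which it gave an adjusted p, 154 of them lower. At an unadjusted p under 0.05, 8 of 10 members were lower, against 9.26% of all genes tested. For 8 of 10 members the groups did not overlap and the treated libraries were the lower ones, against 25.1% of all genes, and 9 of 10 were lower in the mean against 50.6%. The members share sequence and are not independent of each other. They were also chosen with earlier results of these data known, so these shares are a description and not a test. An exact permutation test of 2 libraries against 2 cannot go below p = 0.333, so no single gene could be tested that way.

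The 2 subunit families were then summed per library on the TPM scale. Because TPM divides each gene by its own length, the division of reads among the summed genes can still affect the sum. A sum of CPM does not depend on that division, and *TUBA1A*, *TUBA1B* and *TUBA1C* summed as CPM had a log2 change of -1.05. The 4 α genes summed to 2139 and 1427 TPM in control and 928 and 756 TPM in Z325 libraries, a log2 change of -1.08. The 6 β genes summed to 492 and 525 TPM in control and 360 and 345 TPM in treated libraries, a log2 change of -0.53. Both sums were below both controls in each treated library. α-Tubulin transcripts exceeded β-tubulin transcripts 4.35- and 2.72-fold in the control and 2.58- and 2.19-fold in the Z325 libraries. These ratios are given per library with no test, and they rest mostly on *TUBA1B*, whose control libraries differed. With *TUBA1B-AS1* added to the α sum, an alternative chosen after seeing the data, the sum was 3647 and 3314 TPM in control and 2197 and 2668 TPM in treated libraries, a log2 change of -0.52. The ratio to β was then 7.42 and 6.31 in control and 6.11 and 7.72 in treated libraries, so the groups overlapped. In that sum *TUBA1B-AS1* alone held 1508 and 1887 TPM in control and 1269 and 1912 TPM in treated libraries. Not divided by length, it had 629 and 751 CPM in control and 474 and 623 CPM in treated libraries, so this sum depends strongly on the length scaling of *TUBA1B-AS1*.

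Within the α sum, *TUBA1B* held 82.6 ± 0.853% (SD, n = 2) in control and 78.8 ± 0.467% (SD, n = 2) in Z325 libraries. The share of *TUBA1A* was 3.87% and 4.49% in control and 6.89% and 8.97% in treated libraries, whereas its own level overlapped between the groups. *TUBA4A* held 4.63 ± 0.0625% (SD, n = 2) in control and 5.66 ± 0.277% (SD, n = 2) in treated libraries, while the shares of *TUBA1C* overlapped, with 8.21% and 8.88% in control and 8.80% and 6.45% in treated libraries. Within the β sum, *TUBB* held 65.8 ± 1.33% (SD, n = 2) in control and 67.1 ± 2.06% (SD, n = 2) in treated libraries, and *TUBB4B* 25.8 ± 1.80% and 26.2 ± 2.89% (SD, n = 2 each), and the groups overlapped for both genes. *TUBB2A* held 4.57% and 3.75% in control and 3.22% and 2.87% in treated libraries.

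**Figure D3:**
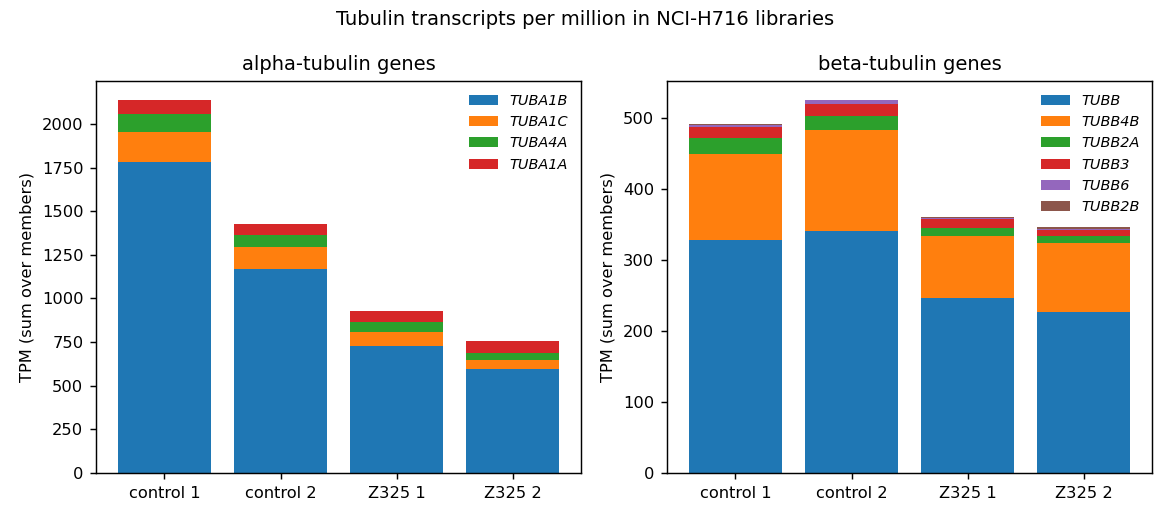
Summed TPM of the 4 α-tubulin genes (left) and the 6 β-tubulin genes (right) in each NCI-H716 library, with bars divided by gene and axes starting at 0. The α bars go from 2139 and 1427 TPM in control to 928 and 756 TPM with Z325, and the β bars from 492 and 525 TPM to 360 and 345 TPM. *TUBA1B* makes up most of each α bar and *TUBB* most of each β bar.

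In HCT116, the question could be asked for 4 members. *TUBA4A* had 2388 and 3344 counts in control and 1266 and 333 counts in Z325 libraries, the last in the library of 3434620 counts. On the TMM-normalized scale these were 173 and 256 CPM in control and 99.0 and 95.4 CPM in treated libraries. The treated libraries were nearly equal and both below the controls, which differed from each other. The log2 fold change was -1.14 (SE 0.200) with an adjusted p of 0.0185 in edgeR. This was 1 of the 3 members tested, where 375 of 6491 genes passed (5.78%) and 191 were lower (2.94%). Both treated libraries were under both controls for 29.0% of the genes tested. The call was lost without the second control library (log2 fold change -0.84, edgeR adjusted p = 0.191) and with limma on log2 of FPKM or TPM (adjusted p of 0.0729 to 0.0823).

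*TUBB2A* had 18.7 and 21.7 CPM in control and 8.76 and 19.8 CPM in Z325 libraries of HCT116. The second treated library, the shallow one with 69 counts, lay between the controls, and the log2 fold change was -0.55 (SE 0.401, edgeR adjusted p = 0.458). Without that library the log2 fold change was -1.18, with an adjusted p of 0.0130 in edgeR. *TUBB2B* had 1 and 15 counts in control and 2 and 3 counts in treated libraries, too few to compare (log2 fold change -0.60, SE 1.55). Summed, *TUBB2A* and *TUBB2B* gave a log2 change of -0.49 in HCT116 and -0.86 in NCI-H716, with no test.

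*TUBB* had 4 and 2 counts in control and 2 and 5 counts in Z325 libraries of HCT116 and was not tested, whereas the NCI-H716 libraries held 9980 to 14171 counts of it. Low counts were shared by its neighbours. Within 1 Mb of *TUBB*, 24 protein-coding genes had at least 100 counts in every NCI-H716 library, and 23 of them (95.8%) had fewer than 10 counts in every HCT116 library. Elsewhere on chromosome 6 this applied to 37 of 371 genes. This window was chosen after the values of *TUBB* were seen. The HCT116 value of *TUBB* therefore describes the deposited table for that stretch of chromosome 6, and whether it describes the cells was not tested.

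*TUBBP1*, a β-tubulin pseudogene, was the one further α- or β-tubulin locus above 10 CPM in a line. In HCT116 it had 285 and 315 counts in control and 75 and 13 counts in Z325 libraries, or 20.6 and 24.2 CPM against 5.87 and 3.72 CPM. It fell 4.48-fold (log2 fold change -2.16, SE 0.353, edgeR adjusted p = 0.0146). It was called in 9 of 14 alternatives. The call was lost without the first control library (edgeR adjusted p = 0.103), without the second (0.175) and with limma on log2 of FPKM or TPM (adjusted p of 0.050007 to 0.0587). In NCI-H716, where the counts came from RSEM, *TUBBP1* was listed at 0 in every library. A pseudogene can take reads of the genes it resembles, so this value is uncertain as a measure of its own transcript.

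The response of the lines was compared by the interaction of treatment and line in edgeR, in which 5 of 7642 genes passed (0.0654%) and none of the 4 tubulin genes tested did. A total of 1094 genes (14.3%) had an unadjusted p under 0.05, and DESeq2 likewise called no tubulin gene. For *TUBA4A* the log2 fold change was 0.43 higher in NCI-H716 than in HCT116, with a 95% interval of -0.27 to 1.12 (adjusted p = 0.570). For *TUBB2A* the difference was -0.40, with an interval of -1.39 to 0.58 (adjusted p = 0.727). *TUBB2B* and *TUBB* had intervals of -2.18 to 3.93 and -3.34 to 0.49 and are not informative.

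**Figure D4:**
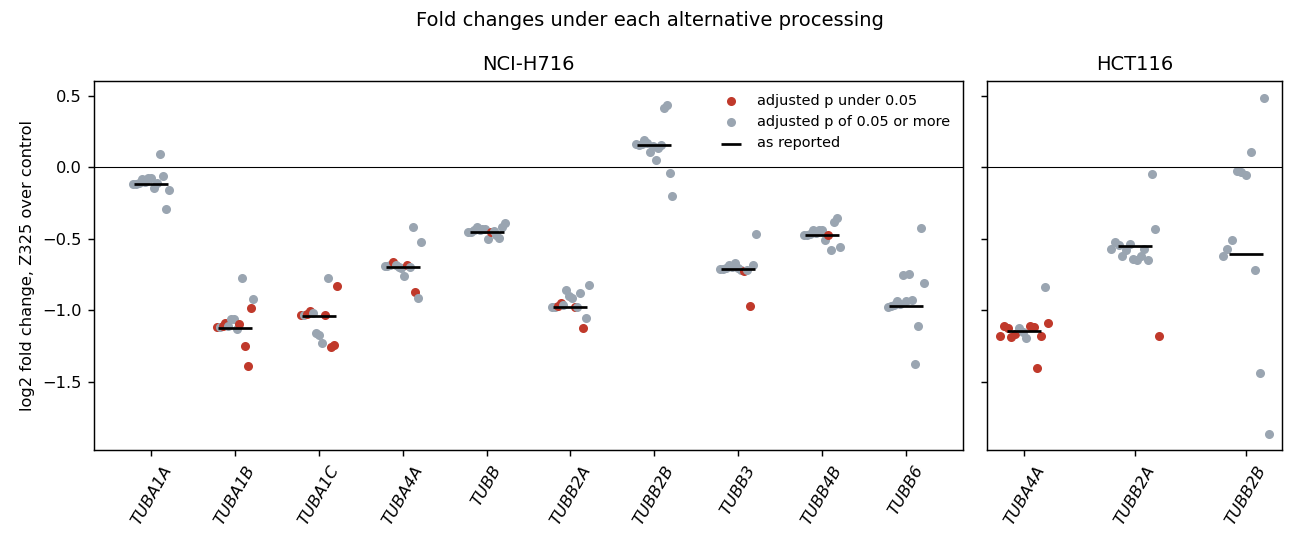
Log2 fold change (Z325 over control) of each tubulin gene under each alternative way of processing the data, including the omission of each library in turn, with the reported value as a black line and alternatives with an adjusted p under 0.05 in red. In NCI-H716, *TUBA1B* lies between -1.39 and -0.77 and *TUBA1C* between -1.25 and -0.77, while *TUBA1A* and *TUBB2B* change sign. In HCT116, *TUBA4A* lies between -1.40 and -0.84.

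Of the members in NCI-H716, *TUBA1B* and *TUBA1C* passed the adjusted threshold in 7 of 14 and 7 of 13 alternatives, and *TUBA1B* was lower in all 14. The alternatives in which *TUBA1B* passed included DESeq2 (adjusted p = 8.55e-05), scaling by library size alone (0.0362) and no filter on low counts (8.06e-09). Its adjusted p was 0.368 in edgeR without the first control library, where the log2 fold change was -0.77, and 4.74e-09 without the first Z325 library. Its side of the threshold thus depended on single libraries. *TUBB2A* passed in 4 of 14 alternatives, *TUBA4A* in 3 of 14, *TUBB3* in 2 of 13, *TUBB* in 1 of 14 and *TUBB4B* in 1 of 13, and each was lower in all of its alternatives. *TUBA1A*, *TUBB2B* and *TUBB6* passed in none.

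The other genes of microtubule biology were described from 7 lists with 111 genes: other tubulins, tubulin folding factors, the factors of tubulin mRNA autoregulation, the γ-tubulin complex that nucleates microtubules, tubulin-modifying enzymes, proteins that bind or extend microtubules, and proteins that shorten or sever them. In NCI-H716, 91 were tested and 0 passed the adjusted p of 0.05 in edgeR, with 12 lower and 7 higher at an unadjusted p under 0.05, which 16.8% of all genes reached in either direction. DESeq2 called 5 of the 86 companion genes to which it gave an adjusted p, 1 lower and 4 higher. Over all genes it called 316 of 10899, 154 of them lower and 162 higher. The median log2 fold change of the 91 companion genes tested in edgeR was -0.06.

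In NCI-H716, the 22 folding genes had a median of -0.12, with 3 lower and 2 higher at an unadjusted p under 0.05. The 3 autoregulation genes had a median of 0.16, and *TTC5*, *SCAPER* and *CNOT11* had log2 fold changes of -0.34, 0.17 and 0.16, with adjusted p-values in edgeR of 0.425, 0.731 and 0.723. DESeq2 called 1 of 11 γ-tubulin complex genes, as lower, against 154 of 10899 genes lower. Of these 11 genes, 10 had a lower mean (50.6% over all genes) and 5 were lower at an unadjusted p under 0.05 (9.26%), with a median of -0.20. Among them *TUBG1*, which encodes γ-tubulin, was named after its values were seen: its level was 142 ± 46.5 CPM in control and 65.3 ± 9.91 CPM in Z325 libraries (SD, n = 2), with a log2 fold change of -1.13 and an adjusted p of 0.0763 in edgeR. DESeq2 called 3 of 19 genes of microtubule binding and growth, all higher, against 162 of 10899 genes higher. Of the 20 such genes tested in edgeR, 5 had an unadjusted p under 0.05, all of them higher, against 7.59% of all genes higher, with a median of 0.12. The medians were 0.17 over 18 modifying enzymes, with 1 lower at that threshold, and -0.09 over 14 genes of shrinkage and severing, with 3 lower. Of the 12 other tubulins, 3 had enough counts to be tested, with log2 fold changes of -1.30 to 0.35.

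In HCT116, 39 of the 50 listed companion genes were tested, of which 4 fell and 4 rose at an adjusted p of 0.05 in edgeR, with a median log2 fold change of -0.14. Over all genes tested, 2.94% fell and 2.83% rose. *TUBE1*, which encodes ε-tubulin of the centriole, rose from 203 ± 14.4 to 496 ± 29.1 CPM (SD, n = 2 each), a 2.44-fold change with an adjusted p of 0.00254 in edgeR. It was called in all 14 alternatives, with a highest adjusted p of 0.0483. In NCI-H716 its log2 fold change was 0.35 (edgeR adjusted p = 0.377).

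The other genes that rose in HCT116 were *MAP2*, a microtubule-associated protein best known from dendrites (log2 fold change 2.22, from 6.71 to 31.3 CPM), *MAP1B*, a related protein of neurites (1.05), and *PFDN2*, a subunit of the prefoldin chaperone (1.01). Those that fell were *CCT3* (-0.56) and *CCT7* (-0.68), subunits of the chaperonin that folds tubulin and actin, *KIF2C* (-0.84), a kinesin that depolymerizes microtubules in mitosis, and *MAP4* (-0.97), a microtubule-stabilizing protein. Their adjusted p-values in edgeR ran from 0.00677 for *MAP2* to 0.0479 for *MAP4*. With either control library left out, and with limma on each of 3 scales, *TUBE1* alone among these 8 passed. *CCT3* was called in 7 of 14 alternatives and also missed the threshold with relative log expression factors (edgeR adjusted p = 0.0523). Of 11 folding genes tested, 2 fell and 1 rose. The other chaperonin subunits tested, *CCT4*, *CCT5*, *CCT6A* and *TCP1*, had log2 fold changes of 0.05, -0.28, -0.03 and 0.05.

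By list in HCT116, the tested genes had medians of -0.15 for 11 folding genes, 0.35 for 2 γ-tubulin complex genes, 0.21 for 9 modifying enzymes, -0.23 for 9 genes of microtubule binding and growth, and -0.26 for 6 genes of shrinkage and severing. The autoregulation list was represented by *CNOT11* at -0.28 (edgeR adjusted p = 0.434) and the other tubulins by *TUBE1*. None of the γ-tubulin complex genes or modifying enzymes passed the adjusted p of 0.05 in edgeR, with 2 modifying enzymes lower and 1 higher at an unadjusted p under 0.05, a threshold that 12.7% of all genes passed as lower and 11.2% as higher.

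**Figure D5:**
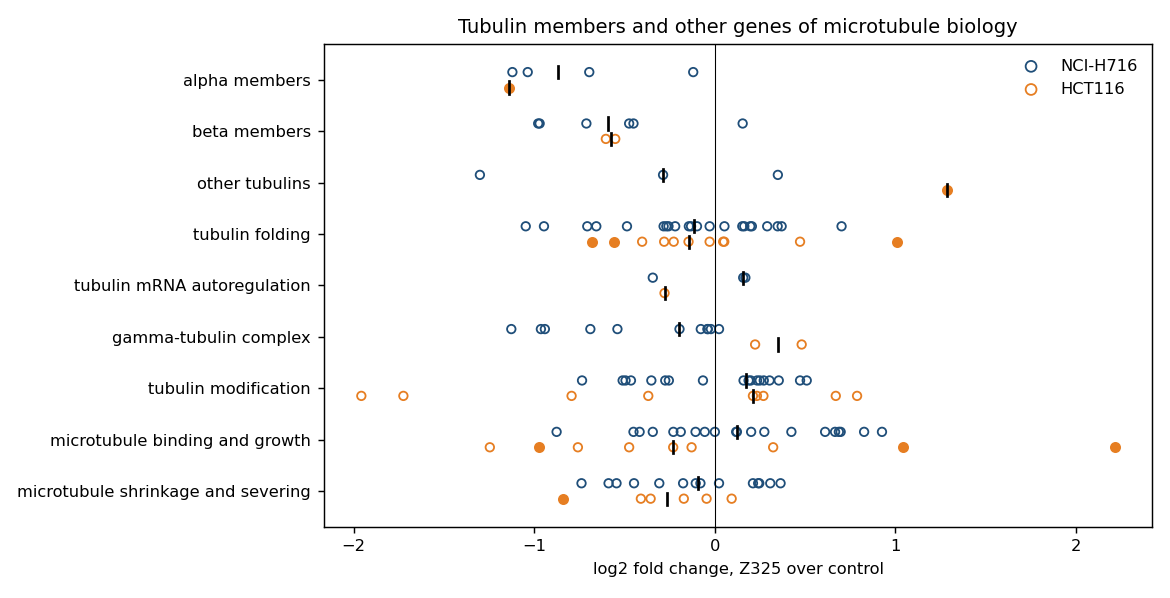
Log2 fold change (Z325 over control) of each tested tubulin member and each tested gene of the 7 lists, NCI-H716 in blue and HCT116 in orange, with filled points at an adjusted p under 0.05 and a black bar at the median of each list. The NCI-H716 medians are -0.86 for the α and -0.59 for the β members, and lie between -0.29 and 0.17 for the 7 lists. All filled points are from HCT116.

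The genes whose profile over the 4 NCI-H716 libraries lay nearest to the mean of the 10 members were *DRG2*, *INTS1* and *PCNA*, at Euclidean distances of 0.0174, 0.0381 and 0.0427 on centred log2 CPM among 7687 genes. *DRG2* had 17.6 and 16 CPM in control and 11.1 and 10.3 CPM in Z325 libraries. *PCNA*, the DNA replication clamp, had 319 and 291 CPM in control and 212 and 186 CPM in treated libraries, with a log2 fold change of -0.62 and an adjusted p of 0.128 in edgeR. In HCT116, the nearest genes to the mean of the 3 tested members were *FAAP20*, *TPRA1* and *PPP1R14BP3* among 3736 genes, at distances of 0.0795, 0.166 and 0.180. That mean gave *TUBB2B*, at 1 to 15 counts per library, the same weight as the other members, so it rests partly on very low counts. With 4 libraries, such a likeness describes these libraries and is no test.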

How the data were processed

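RNA-seq libraries of control and Z325-treated HCT116 and NCI-H716 cells were amplified by SMART-Seq2, which does not mark strand. The study's methods name TrimGalore for trimming, STAR for alignment to GRCh38 and RSEM for quantification, whereas the submitters' processing notes name Bowtie2 2.5.0, featureCounts and hg38. For NCI-H716 the authors deposited expected counts, TPM and FPKM per gene and library, in the layout of RSEM. For HCT116 the authors deposited unnormalized read counts for the 4 libraries, in the layout of featureCounts. That table ends on chromosome 9 at base 4587469, and of its 28047 lines 4 broken or unfinished ones were left out. How reads shared between genes were counted is not given in the sources used here. RSEM divides reads between similar genes and featureCounts by default does not, so levels of paralogs are not comparable between the lines.

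Rounding made the expected counts whole. Each line was fitted alone in edgeR 4.0.16 (TMM, filterByExpr, quasi-likelihood test) with Benjamini-Hochberg adjustment over 14142 genes in NCI-H716 and 6491 in HCT116, and a gene was called at an adjusted p under 0.05. The interaction was fitted over all 8 libraries and 7642 genes. FPKM and TPM for HCT116 were computed from the deposited counts and lengths. TMM factors ran from 0.956 to 1.038. The replicates of each group were not the same library deposited again (chi-square per degree of freedom of 15.6 to 38.5). Groups came from the titles and the tables' column names or file assignments. With 2 libraries per group, p-values measure the spread between these libraries.

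The 10 members and the companion lists were chosen with earlier results of these data known. The genes named were the members, other tubulin genes and pseudogenes with a mean of at least 10 CPM, up to 5 called genes per companion list, and the 3 genes nearest in profile in each line. *TUBG1*, *SYP*, the autoregulation genes, *CCT4*, *CCT5*, *CCT6A* and *TCP1*, the antisense and overlapping genes, and *TUBE1* in NCI-H716 were named outside this rule, after their values were seen. *TUBB8*, *TUBB8B* and the other cell type markers were named without a test.

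Alternatives were other scaling, DESeq2 1.42.0, other filters on low counts, limma 3.58.1 on log2(FPKM + 1), log2(FPKM + 0.1) and log2(TPM + 1), a replicate block, all 8 libraries in 1 fit and leaving out each library. Counting *TUBA1B*, or the α sum, with *TUBA1B-AS1* was added after the data were seen. Coding sequences came from GENCODE v44 and promoters from RefSeq. The fit was tested on simulated data with 200 genes altered 4-fold and the same dispersion for every gene of a line. Of these, 91.5% were called over 14142 genes for NCI-H716, with 8 false calls, and 85.5% over 6491 genes for HCT116, with 10. Changes as small as those of the tubulin members were not simulated, so the recovery of such changes was not tested. Scripts ran in Python 3.11.15 with pandas 2.3.3, Biopython 1.88 and matplotlib 3.10.9, and in R 4.3.3.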

Additional observations from a re-analysis of the deposited data

How the results depend on the processing

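The alternatives gave 790 further values for 64 results, of which 611 were counted as unchanged. A tested fold change had to keep its direction and its side of the threshold, and a value with no test had to stay within the replicate spread. A count of genes called had to stay near the reported count, as 99 genes against 71 did in NCI-H716 with library size alone. The cause of the other changes was not tested. For NCI-H716, where edgeR called 0 tubulin members, 71 genes and 0 companion genes, DESeq2 called 3, 316 and 5, no filter on low counts 4, 787 and 7, and a replicate block 7, 2397 and 18. Library size alone called 2 members and 1 companion gene, limma on log2(FPKM + 1), log2(FPKM + 0.1) and log2(TPM + 1) 6 genes each, and all 8 libraries in 1 fit 19 genes. Leaving out 1 library gave 0 to 5 members, 62 to 1398 genes and 0 to 14 companion genes, with 5, 1398 and 14 without the first Z325 library, 2, 225 and 1 without the second control library, and 2, 224 and 1 without the second Z325 library. For HCT116, where edgeR called 1 member, 375 genes and 8 companion genes, limma on these scales called 0 members, 47, 37 and 46 genes, and 1 companion gene each. There DESeq2 called 709 genes, no filter 683 and a minimum of 10 counts in every library 615. Leaving out 1 library gave 0 to 2 members, 23 to 1076 genes and 1 to 11 companion genes, with 44 genes without the first and 23 without the second control library, 971 without the first and 1076 without the second Z325 library. The share of *TUBA1B* in the α sum changed by -3.86 percentage points on the TPM scale and by -5.13 on CPM not divided by length, and by -4.46 to -3.26 without 1 library. The summed α level had a log2 change of -1.35 to -0.76 and the β level of -0.57 to -0.48 without 1 library, and the α level of -0.52 with *TUBA1B-AS1* in the sum.

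Fitted log2 fold changes of *TUBA1A* and *TUBB2B* changed sign in some alternative, none of them called. *TUBA1A* in NCI-H716 was at 0.092 without the first control library (range -0.287 to 0.092 over the libraries left out), *TUBB2B* in NCI-H716 at -0.04 without the second control and -0.20 without the second Z325 library (range -0.20 to 0.44), and *TUBB2B* in HCT116 at 0.11 with the replicate block and 0.49 without the first Z325 library (range -1.86 to 0.49). Changes in share, in percentage points, also turned sign when 1 library was left out for *TUBA1C* (-2.09 to 0.26), *TUBB* (-0.15 to 2.77) and *TUBB4B* (-1.66 to 2.42). Replicate numbers were not taken to pair the libraries: deviations of same-numbered libraries from their group means correlated at 0.249 in NCI-H716 and -0.0244 in HCT116, over only 2 numbers. Under the block, 2397 of 14142 genes were called in NCI-H716, and the members called were all except *TUBA1A*, *TUBB2B* and *TUBB6*. *TUBA4A* stayed called in HCT116 (adjusted p = 0.00695 in edgeR). With 2 libraries per group, the low genes *TUBB2B* and *TUBB6* had SEs of 0.438 and 0.435 in NCI-H716, and in HCT116 the Z325 library of 3434620 counts limits the precision. Where a library was left out, the lone library was assumed to vary like the other group.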
